A study of Mus musculus with 18 samples.

Results

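Cells with the highest level of FoxA2 were compared with cells without FoxA2 from wild-type mouse gastrulae at embryonic day 7.5. The comparison takes 6 of the 18 libraries of the series, 3 of the gate called High and 3 of the gate called Neg, and covers all 24498 genes of the deposited table, 14711 of which had enough reads to be tested. In all groups both Foxa2 alleles carried a knock-in that fuses FoxA2 to the red fluorescent protein tagRFP; here WT means that the fused FoxA2 is otherwise intact, and no group lacks the tag. The mice had a mixed C57Bl6/J and CD-1 background. About 10 homozygous embryos, not sexed and without the extra-embryonic part used for genotyping, were pooled for each sort, so a library is an average over embryos and over all cell types in its gate. High cells were brighter than cells of heterozygous embryos, Neg cells showed no signal, and the remaining gate, Mid, covered the range from autofluorescence to the heterozygous maximum. The other genotype, ΔHx, lacks 10 amino acids that form a helix in FoxA2 and serves here only for 1 test of the difference between genotypes.

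Between 12302196 and 16752042 reads per library were counted in genes, and 16566 to 17917 genes were detected with at least 1 read. The ribosomal RNA precursor Rn45s took 29.0% to 37.9% of these reads in High and 23.7% to 32.1% in Neg. Reads outside genes were 9.36% to 11.8% in High and 7.17% to 9.47% in Neg, and reads with no unique place were 37.7% to 38.9% and 40.8% to 41.3%; the part of these shares in the results was not tested. The kit does not mark strand, so a gene and an antisense or overlapping partner cannot be told apart. Replicates are biological per the labels, and p-values measure the spread between these pooled sorts. Values are normalised read counts (reads divided by 1 factor per library), given as single libraries or as mean ± SD of n = 3 libraries. Differences are High minus Neg of log2(value + 1), a scale that shrinks differences between low values, with the standard error (SE) and the Benjamini-Hochberg adjusted p of limma, which tests each gene against a spread shared by all 6 groups of the series. Higher, lower, rose and fell refer to an adjusted p under 0.05. In pooled cells, fewer cells of a type and less RNA per cell cannot be told apart.

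FoxA2 is a forkhead transcription factor that marks the anterior primitive streak, the node, the notochord and the endoderm of the gastrula. The node is a small organiser at the tip of the streak: it secretes antagonists of BMP and Wnt and the ligands Nodal and Sonic hedgehog, and its cells bear motile cilia whose flow sets the left-right axis. Assembly of such cilia is directed by the forkhead factor Foxj1 and by RFX factors, which bind a palindromic X-box in promoters of ciliary genes.

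Because many of the largest differences were in ciliary genes, promoter windows were searched for an X-box, spelled GTNNCCNNGGNNAC, where N is any base, and for a forkhead motif, spelled TGTTTAC, on both strands. The windows are RefSeq's for GRCm38.p6, 250 bases before to 50 bases after a gene's start, and 11157 of the 14711 tested genes had one. Some X-boxes of genes that rose are given here with 15 bases on each side, 5′ to 3′ along the gene, with the match in capitals. They were picked after their values were seen, 3 from genes of motile cilia and their formation. The rest are from genes of ciliary transport and of the gate at the ciliary base. The search fixed the spacing of the palindrome, so only the N bases and the flanks can differ between them. No window shown overlaps an exon of the GENCODE annotation.
Tekt4, chr17:25471415-25471458, plus strand: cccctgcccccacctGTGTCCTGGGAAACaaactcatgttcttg
Ccdc151, chr9:22002640-22002683, minus strand: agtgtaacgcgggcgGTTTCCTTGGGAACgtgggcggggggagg
Ccno, chr13:112987568-112987611, plus strand: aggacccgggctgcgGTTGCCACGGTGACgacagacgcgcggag
Ift22, chr5:136908072-136908115, plus strand: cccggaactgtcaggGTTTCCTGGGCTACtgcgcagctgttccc
Ift22, chr5:136908102-136908145, plus strand: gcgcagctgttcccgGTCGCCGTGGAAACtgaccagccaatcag
Wdr19, chr5:65199647-65199690, plus strand: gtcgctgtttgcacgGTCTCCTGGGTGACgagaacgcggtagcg
Bbs7, chr3:36613482-36613525, minus strand: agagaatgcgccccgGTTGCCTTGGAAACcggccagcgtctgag
Tctn2, chr5:124598672-124598715, plus strand: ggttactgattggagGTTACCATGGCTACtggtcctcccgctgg
Nphp4, chr4:152477896-152477939, plus strand: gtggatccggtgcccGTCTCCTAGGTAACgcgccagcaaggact

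The share of genes with an X-box match was larger among genes with larger rises. A match was found for 2.86% of tested genes with a window (319 of 11157) and in 1.88% of the 32851 windows of the whole RefSeq table. It was found for 5.92% of the genes higher in High (151 of 2551), 7.49% of those at least 4-fold higher (62 of 828) and 12.6% of those at least 16-fold higher (31 of 246). Among genes lower in High it was found for 1.65% (40 of 2419), among those at least 4-fold lower for 0.898% (3 of 334) and among those at least 16-fold lower for 0 of 51. Genes called in neither direction held it in 2.07% of cases. By function, the match was found for 30.6% of the genes of intraflagellar transport, BBSome and transition zone (15 of 49). It was found for 14.3% of the genes of the axoneme (6 of 42) and 4.76% of the mitosis genes (1 of 21). None of the 8 node, 8 definitive endoderm, 13 Hox and 29 DNA replication genes with a window had it. At the share of 2.86% over all tested genes, lists this small can lack a match without differing from that share. The classes of change were formed from the same measurements and the lists chosen with earlier results known, so the shares are a description.

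The forkhead motif was found for 3.13% of tested genes with a window (349 of 11157) and in 3.65% of all windows of the RefSeq table, for 3.61% of genes higher in High and for 6.91% of those at least 16-fold higher (17 of 246). Genes lower in High held it in 2.81% of cases. None of the 42 genes of the axoneme, 49 of intraflagellar transport, BBSome and transition zone, and 13 Hox genes with a window had a match. It was found for 2 of 8 definitive endoderm genes, 1 of 8 node genes, 1 of 21 mitosis genes and 2 of 29 DNA replication genes. At the share of 3.13% over all tested genes, these counts are too small to show a difference from that share. Some of the 17 genes at least 16-fold higher with the motif, in either orientation, are shown next. They were picked with their values known, and the rest are not shown. Foxa1 is the closest relative of Foxa2, Ak7 an axonemal adenylate kinase, and Iqub and Cfap43 belong to the motile axoneme.
Foxa1, chr12:57546231-57546267, minus strand: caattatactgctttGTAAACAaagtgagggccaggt
Ak7, chr12:105705836-105705872, plus strand: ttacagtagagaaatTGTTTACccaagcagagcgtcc
Iqub, chr6:24515241-24515277, minus strand: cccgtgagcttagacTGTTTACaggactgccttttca
Cfap43, chr19:47837395-47837431, minus strand: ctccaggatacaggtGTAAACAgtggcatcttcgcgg
A match says only that these letters occur in the window, not that a factor is bound there.

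**Figure D1:**
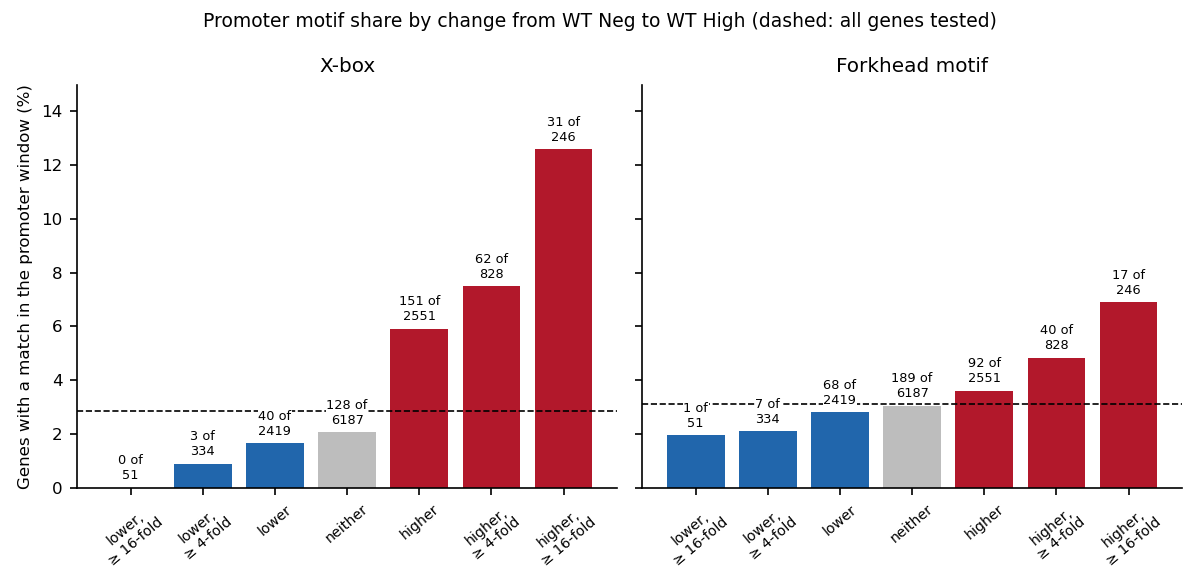
Share of genes with a promoter match (percent, bars from 0) by class of difference between WT High and WT Neg, for the X-box (left) and the forkhead motif (right), with the number of genes above each bar and the share among all tested genes as a dashed line. The X-box share goes from 0 of 51 genes at least 16-fold lower to 12.6% of those at least 16-fold higher, and the forkhead share from 1.96% to 6.91%.

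The sorted gene itself checked the gates. Foxa2, a protein-coding gene on the minus strand of chromosome 2 (148042877 to 148046969 in mm10), was 2483, 1742 and 1556 in the High libraries and 40.6, 20.3 and 23.6 in Neg, so no Neg library came near a High one. In all, 22.6% of tested genes were higher in High (3331 of 14711) and 21.8% were lower (3201), and for 54.7% the High and Neg libraries did not overlap. Counts for the gene lists below are to be read beside these shares. The counts of both directions were close, but the large differences lay on the side of High: 1105 genes were at least 4-fold higher and 492 at least 4-fold lower, and at 64-fold the counts were 87 and 12. Against a limit of 2-fold instead of 0, 939 genes were higher and 330 lower. Of 136 long intergenic RNAs 22.8% were higher and 6.62% lower, against 23.0% and 22.4% of 13655 protein-coding genes.

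**Figure D2:**
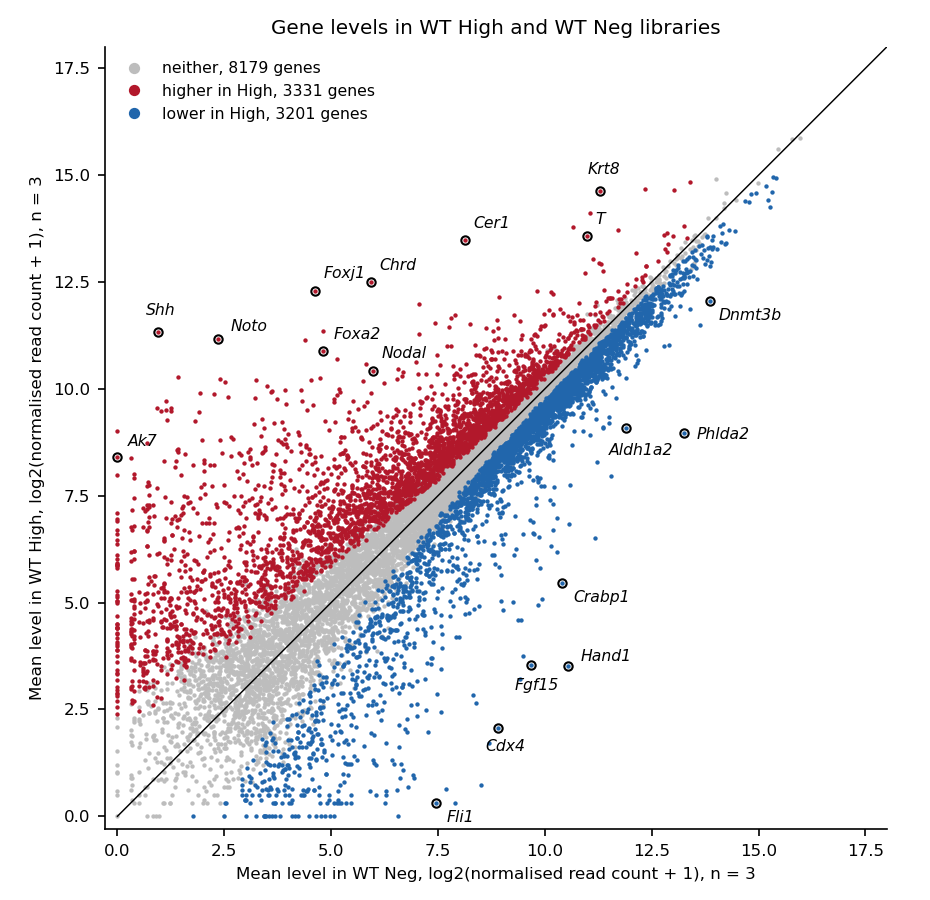
Mean level of each of the 14711 tested genes in WT Neg (x axis) and WT High (y axis), both as log2(normalised read count + 1) over 3 libraries, with genes higher in High in red, lower in blue and neither in grey, and some genes circled. Red points reach farther from the diagonal than blue ones, as for Shh and Ak7, which had few or no reads in Neg.

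Node and notochord genes were raised as a whole list. All 12 tested markers rose, with a median difference of 4.57 against 0.02 over all tested genes. Shh (chromosome 5, 28456815 to 28467256), the notochord's Hedgehog ligand, was 2461, 1809 and 3893 in High and 6.16, 0 and 0 in Neg (log2 difference 10.39, SE 0.62, adjusted p = 2.16e-10, and 11.34 without the first Neg library). Noto (chromosome 6, 85423886 to 85428877), a homeobox factor of the node, was 2329, 1761 and 2896 against 16.01, 3.04 and 0.906. For both genes the first Neg library held most of the Neg reads, and the groups lay far apart.

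T, the T-box factor of streak and notochord known as brachyury, is also made by the mesoderm that leaves the streak, and its difference was the smallest of the list. It was 15866, 10088 and 11319 in High against 3105, 1579 and 1688 in Neg (2.59, SE 0.25, adjusted p = 1.10e-07). Goosecoid (Gsc), a homeobox gene of the anterior streak and prechordal plate, was 374, 541 and 519 against 28.3, 38.5 and 44.4. The cartilage and notochord factor Sox9 rose from 225 ± 29.1 to 3273 ± 749, and the forkhead gene Foxd4 from 55.5 ± 10.4 to 1562 ± 356. Foxd4 stayed low in Mid (52.1, 58.3 and 132), whereas Gsc in Mid was 333, 391 and 142, which overlaps High and lies above every Neg library. Vtn, which encodes the matrix protein vitronectin, was not on the list but was among the 12 largest rises picked by size (1279 ± 357 against 18.5, 0 and 0).

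In the Hedgehog pathway the ligands and the targets Ptch1 and Gli1 were higher and the effectors Gli2 and Gli3 lower. Of 16 tested genes 8 rose and 5 fell. Besides Shh, the related ligand Ihh was low but higher in High (67.0 ± 31.9 against 8.08 ± 1.90), and it was higher still in Mid (247, 119 and 195). The receptor Ptch1, itself a target of the pathway, was 785, 794 and 854 in High and 398, 358 and 350 in Neg (1.14, SE 0.12, adjusted p = 3.10e-07). The target and effector Gli1 was 294, 268 and 189 against 94.8, 140 and 98.7 (1.16, SE 0.23, adjusted p = 0.00039). The groups did not overlap for either target, and the differences were far smaller than that of the ligand. The effectors Gli2 (-0.82) and Gli3 (-1.22), the latter mainly a repressor, fell, as did the co-receptor Gas1, which went from 1552 ± 252 in Neg to 219 ± 51.3 in High. The co-receptor Cdon rose (1.83), the co-receptor Boc was 153 ± 46.3 against 176 ± 27.0, and the transducer Smo was 1340 ± 147 against 1609 ± 175. Neither of these passed the test, although Smo fell without the first High library (-0.35) and with array weights (-0.30).

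Nodal, its processing enzyme and its co-receptors were higher in High, and its antagonists split. Of 16 tested genes of the pathway 7 rose and 2 fell, and 4 fell after quantile normalisation. The ligand Nodal was 1499, 1312 and 1318 in High and 43.1, 84.2 and 66.1 in Neg (4.44, SE 0.20, adjusted p = 7.40e-12). The protease Furin (2.58) and the co-receptors Tdgf1 (1.89) and Cfc1 (1.65) rose too. Of the antagonists, Cer1 was 11348, 10040 and 12910 against 381, 233 and 245, and Lefty1 was 237, 407 and 234 against 32.0, 52.7 and 22.7. Lefty2 ran the other way, at 439, 110 and 36.3 in High against 1049, 736 and 671 in Neg (-2.72, SE 0.72, adjusted p = 0.00456), or -3.64 without the first High library and -1.86 without the third. Its spread was wide, with the first High library well above the third, but no High library reached the lowest Neg one. The nuclear partner Foxh1 fell by 1.17, and the receptors Acvr1b and Acvr2a passed the test in neither direction, save that Acvr1b fell (-0.64) after quantile normalisation.

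The organiser's BMP antagonists Chrd and Nog were higher in the gate, and some BMP targets were lower. Of 23 tested genes 5 rose (21.7%) and 8 fell (34.8%), against 22.6% and 21.8% of all tested genes. Chordin (Chrd) was 7648, 4590 and 5438 in High and 118, 59.8 and 30.8 in Neg (6.55, SE 0.34, adjusted p = 2.67e-11). Noggin (Nog) was 1090, 745 and 821 against 36.9, 28.4 and 33.5. The target genes Msx1 (56.9 ± 24.8 against 326 ± 61.5), Msx2 (76.8 ± 43.7 against 620 ± 13.3) and Id2 (427 ± 146 against 1617 ± 298) fell, while Id1 did not pass the test (1546 ± 510 against 1729 ± 93.5) unless the second High library was left out (-0.46), and the feedback inhibitors Smad6, Smad7 and Bambi were not called. Smad6 and Smad7 fell after quantile normalisation (-1.09 and -1.30). Of the ligands, Bmp4 fell from 517 ± 26.4 to 151 ± 20.5, Bmp7 rose from 437 ± 58.0 to 1866 ± 292, and Bmp2 and Bmp5 were called in neither direction. The antagonists Fst and Bmper fell, and both had their highest value in the first Mid library (19593 for Fst). The list gave 3 rises and 8 falls with the compared libraries alone, 3 and 6 without the second Neg library, and 3 and 7 without the third. With a replicate block it gave 8 rises and 8 falls.

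Wnt ligands were low in High. Of 13 tested ligands and R-spondins 9 fell and only Wnt11 rose. Wnt8a, a ligand of the posterior streak, was 28.8, 16.4 and 26.6 in High and 719, 540 and 741 in Neg (-4.77, SE 0.27, adjusted p = 1.22e-10). Wnt5a was 117, 115 and 70.9 against 935, 743 and 853, and Wnt3a was 247, 131 and 113 against 586, 300 and 433. These 3 ligands separated the gates in every library. Wnt11 was 138, 138 and 121 against 72.7, 29.4 and 18.1 (1.93, SE 0.53, adjusted p = 0.00609).

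The secreted Wnt antagonists did not move as a group, with 5 rises and 3 falls of 13 (4 and 5 after quantile normalisation, 6 and 5 with array weights). Dkk1 (1294 ± 165 against 394 ± 141), Sfrp1 (3437 ± 363 against 1005 ± 53.5) and Shisa2 (867 ± 20.9 against 232 ± 21.0) rose together with Cer1, and Sfrp2 and Notum fell. Among 12 targets and feedback genes 2 rose and 6 fell. The posterior homeobox genes Cdx1, Cdx2 and Cdx4 fell, the last from 477 ± 34.6 to 3.91 ± 3.16, and so did the effector Lef1 (-2.12). Sp5 went the other way (2309 ± 147 against 819 ± 141), and the common feedback target Axin2 was 611, 619 and 381 in High and 733, 501 and 572 in Neg, which overlap.

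In the FGF pathway 5 of 19 tested genes rose and 10 fell (3 and 11 without the second High library, 3 and 9 without the first Neg library). These are 26.3% and 52.6% in the main fit, against 22.6% and 21.8% of all tested genes. Fgf15, Fgf3 and Fgf4, ligand genes that lie side by side on chromosome 7, were low in High. Fgf15 was 50.4, 4.55 and 4.43 against 787, 891 and 797 (-6.16, SE 0.53, adjusted p = 1.95e-08, and -7.23 without the first High library), Fgf3 was 32.4, 4.55 and 12.4 against 636, 849 and 677, and Fgf4 was 42.0, 25.5 and 4.43 against 340, 173 and 273. In each case the first High library was the highest of its gate and still below every Neg library. Fgf5, an epiblast ligand, rose (1544 ± 302 against 325 ± 192), as did Fgf8, the streak ligand needed for cells to leave it, by less (719 ± 102 against 366 ± 47.8, limma adjusted p = 0.0288). Fgf8 was no longer called without the first or second High library or the first or the third Neg library (adjusted p = 0.0552 to 0.0938). The receptor Fgfr1 fell by 1.03 and Fgfr4 rose, at 56.3, 138 and 57.6 against 11.1, 14.2 and 20.8. The feedback inhibitors parted: Spry2 fell (393 ± 42.8 against 762 ± 63.6) and Spry4 rose (600 ± 57.1 against 341 ± 28.4).

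The Delta ligands of Notch were lower in High, and 2 receptors and some target genes were higher. Of 17 tested genes 6 rose and 6 fell (4 and 3 without the first High library, 5 and 3 without the first or the third Neg library). Dll1, the main ligand of presomitic mesoderm, was 862, 590 and 637 in High against 2248, 1677 and 1822 in Neg (-1.47, SE 0.15, adjusted p = 2.00e-07), and Dll3 and the modifier Lfng fell with it (-1.16 and -1.81). The Jagged ligands were not called: Jag2 was 26.4, 40.1 and 27.5 against 20.9, 21.3 and 26.3, and Jag1 was 569 ± 149 against 394 ± 35.4. Jag1 was called higher under equal totals (0.61), with array weights (0.57) and without the third High library (0.71). The receptor Notch2 was 3101, 2586 and 2978 against 1173, 990 and 950 (1.48, SE 0.14, adjusted p = 6.37e-08). The targets Hey1 (490 ± 66.3 against 177 ± 10.6) and Hes1 (1265 ± 92.3 against 723 ± 75.8) rose, whereas Hes7, the segmentation clock gene, fell from 175 ± 63.6 to 93.0 ± 23.0 with overlapping libraries, and was not called without the first or the third library of either gate (-0.62 to -0.91), or with equal totals or array weights.

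Genes of retinoic acid synthesis went both ways. Of 12 tested genes 4 rose and 6 fell. The synthesising enzyme Aldh1a2 was 647, 593 and 409 in High and 3827, 3899 and 3653 in Neg (-2.81, SE 0.33, adjusted p = 1.28e-06). The binding protein Crabp1 was 62.3, 41.0 and 31.0 against 1232, 1317 and 1559. The degrading enzyme Cyp26a1 was 1451, 3027 and 2769 against 611, 810 and 678. No High library overlapped Neg for these 3 genes. Another synthesising enzyme, Aldh1a1, rose from few reads, at 33.6, 52.8 and 31.9 against 8.62, 0 and 0 (4.21, SE 1.35, adjusted p = 0.0156). That call was lost in DESeq2 (3.81) and without the second or the third Neg library (3.67 in both cases), and the difference was 5.30 without the first. The receptor Rara rose (1.19), and Rarb (-1.68) and Rarg (-1.88) fell.

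Planar cell polarity genes orient cells within a sheet and tilt the cilia of the node. They showed 9 rises and 2 falls of 19 tested. Prickle2 was 620, 628 and 718 in High and 71.4, 86.2 and 76.1 in Neg (3.06, SE 0.19, adjusted p = 2.75e-10). The receptor Fzd6 (595 ± 35.2 against 84.6 ± 19.1), the atypical cadherin Celsr1 (955 ± 248 against 229 ± 22.2) and Vangl1 (982 ± 83.5 against 373 ± 32.2) also rose. Vangl2 rose by 0.58, with its lowest High library (905) just above its highest Neg one (877). The co-receptors Ptk7 and Ror2 fell by 0.93 and 0.45.

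**Figure D3:**
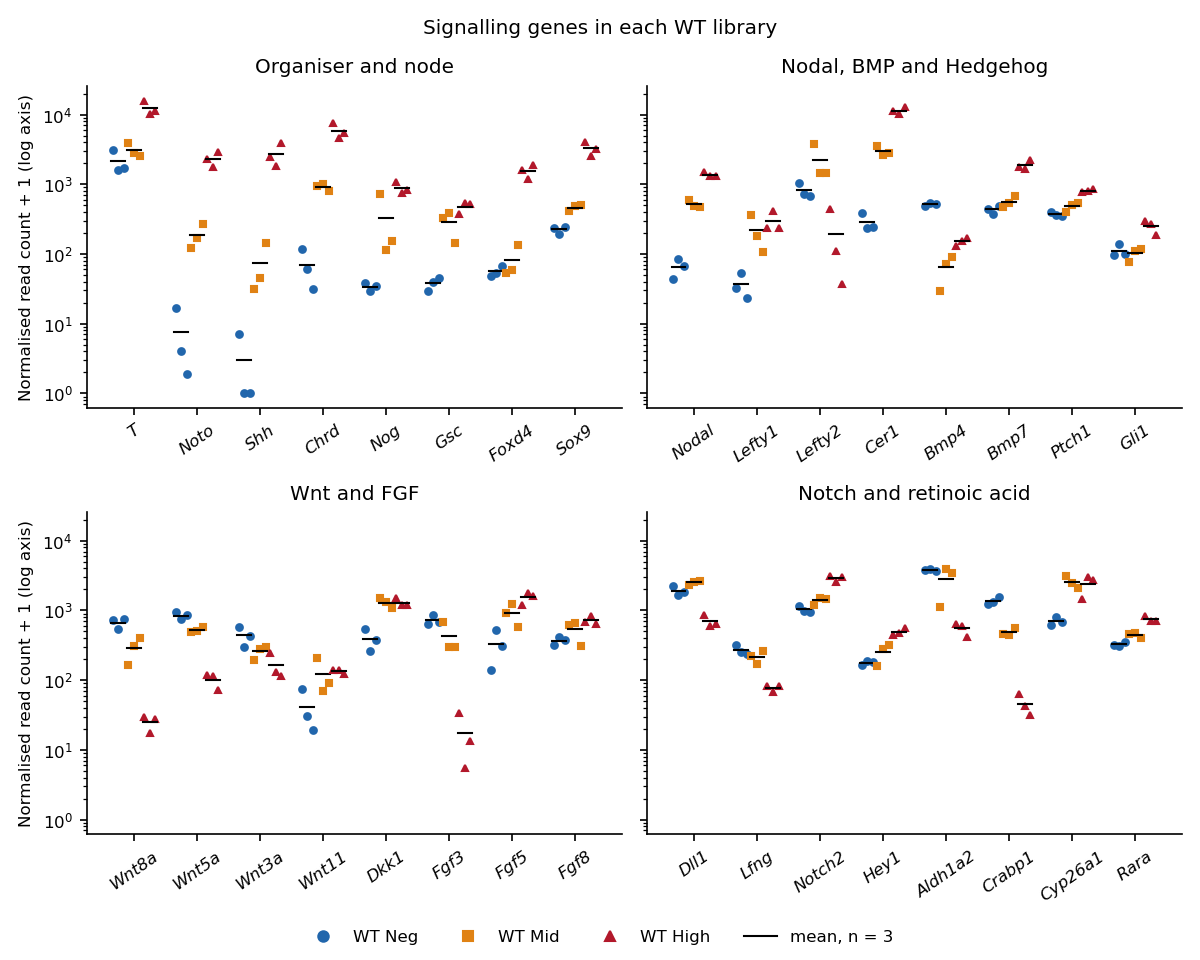
Normalised read count + 1 (log axis) of signalling genes in each WT Neg (circles), WT Mid (squares) and WT High (triangles) library, with the mean of each gate as a bar. Chrd, Nodal and Notch2 are highest in all 3 High libraries, Wnt8a, Fgf3 and Crabp1 are lowest there, and Lefty2 is highest in Mid.

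The building blocks of motile cilia were among the largest differences. Of 15 tested axonemal dynein chains 14 rose (median 4.09), of 22 docking, ruler, radial spoke and central pair proteins 21 rose (median 4.67), and of 12 dynein assembly factors 7 rose and 1 fell (median 2.30). Rsph4a, Dnah6 and Zmynd10 of these lists, with the axonemal or ciliary genes Ak7, Enkur, Cfap206, Dynlrb2 and Mapk15, were among the 12 largest rises picked by size. The radial spoke gene Rsph4a was 659, 563 and 1129 in High against 1.23, 2.03 and 0 in Neg, where 3 reads in all make a ratio of 772 with an exact 95% interval of 264 to 3746. The dynein heavy chain Dnah6 was 1107, 588 and 558 against 7.39, 0 and 0 (8.46, SE 0.62, adjusted p = 2.36e-09, and 9.48 without the first Neg library). Dnah5 and Dnah11, outer arm heavy chains known from ciliary disease and from the mutant with random left-right asymmetry, were 948 ± 143 against 5.83 ± 6.77 and 531 ± 112 against 30.6 ± 8.16. The assembly factor Zmynd10 was 897, 588 and 813 against 1.23, 5.07 and 0. Tekt4, whose X-box is shown above, was 514, 327 and 448 against 1.23, 0 and 0.906. For each of these genes every High library lay far above every Neg one.

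Some members were not raised. The chaperones Ruvbl1 and Ruvbl2 act in many complexes. Ruvbl2 fell by 0.40, a call lost after quantile normalisation (-0.14), and Ruvbl1 just missed the threshold (adjusted p = 0.0537) and passed it in DESeq2 (0.0375), with array weights (0.0144), with the filter at 50 (0.0469) and without the first Neg library (0.032). Dnah8, a dynein of the sperm tail, was 31.2, 66.4 and 28.4 against 12.3, 22.3 and 35.3, which overlap. Genes whose symbol starts with Cfap, a family of cilia and flagella proteins counted after the values were seen, gave 22 rises and no fall among 23 tested.

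Of the regulators of the ciliary programme 5 of 8 tested rose and 2 fell. Foxj1 was 6367, 3824 and 5177 against 71.4, 8.11 and 21.7 (7.67, SE 0.47, adjusted p = 2.78e-10, and 6.95 or 8.45 without the second or the first Neg library). Rfx2 was 315, 293 and 293 against 13.6, 8.11 and 12.7, Rfx3 was 2935, 1944 and 2137 against 728, 474 and 449, and Rfx1 differed by only 0.51, a call lost after quantile normalisation (0.33) and without the first High or the first or the third Neg library (0.39 to 0.54). Ccno, a cyclin-like gene of cells that make many cilia, rose from 46.2 ± 13.4 to 854 ± 163. Other regulators of such multiciliated cells fell, namely Trp73 (15.2 ± 11.3 against 51.2 ± 15.1) and Myb (7.89 ± 2.74 against 119 ± 52.8), the former not called without the second High or the second Neg library (-1.37 and -1.72), the latter also a gene of blood progenitors. The geminin relatives Mcidas and Gmnc did not reach the read minimum.

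Genes shared by motile and immotile cilia showed smaller differences. Of 30 tested genes of intraflagellar transport, which carries cargo along the cilium, 26 rose with a median of 1.12. Of 9 tested BBSome genes 8 rose (median 0.92), and of 17 genes of the transition zone, the gate at the ciliary base, 15 rose (median 1.27). None fell. Ift88 was 940, 705 and 1025 in High against 331, 331 and 342 in Neg (1.39, SE 0.17, adjusted p = 2.95e-06), and Ift81 was 1428, 1118 and 1364 against 313, 314 and 323. Of the genes with an X-box shown above, Ift22 rose by 1.62, Wdr19 by 1.49, Tctn2 by 1.59, Nphp4 by 1.53 and Bbs7 by 0.77. Bbs7 was 197, 171 and 263 against 124, 139 and 102, a narrow gap, and the call was lost after quantile normalisation (0.45) and without the first or the third library of either gate (0.60 to 0.81). Ttc30a1, Ttc30a2 and Ttc30b are near-identical copies, so their separate values are uncertain.

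Of the genes that read the nodal flow, 3 of 8 tested rose. Dand5, a Nodal antagonist made at the edge of the node and broken down on the left, was 683, 1030 and 1132 against 60.4, 22.3 and 29.0 (4.73, SE 0.32, adjusted p = 9.65e-10). Bicc1, an RNA-binding protein that acts on its transcript, was 1184, 1074 and 1222 against 76.4, 45.6 and 40.8. The flow-sensing channel Pkd2 was 398, 278 and 161 against 206, 229 and 168, and its libraries overlapped, though it was called (0.74) without the third High library.

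Endoderm markers were raised too. All 11 tested markers of definitive endoderm and gut rose (median 3.32), and of 16 endoderm transcription factors 10 rose and 1 fell. Sox17 was 1376, 1760 and 1610 in High and 179, 102 and 108 in Neg (3.64, SE 0.18, adjusted p = 2.22e-11). Foxa3 was 270 ± 46.3 against 11.8 ± 3.97, and Foxa1 was 1181, 1047 and 594 against 18.5, 2.03 and 2.72. Gata4, a factor of extra-embryonic endoderm and heart, fell from 631 ± 113 to 269 ± 112, Gata6 was called in neither direction (it fell, adjusted p = 0.0393, with the compared libraries alone), and Eomes rose by 1.33. Of the gut-type genes, Tmprss2 was 1972, 3022 and 2608 against 238, 89.2 and 110, and Krt19 rose by 4.92. Summed over the definitive endoderm list, the level was 28735 to 30924 in High and 1568 to 2075 in Neg, with Mid at 22255 to 26934.

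Visceral endoderm genes were raised in High but summed to far less there than in Mid. Of 19 tested genes 12 rose and 2 fell. Their summed level was 5492.5 to 11887 in High and 3202 to 3859 in Neg but 50996 to 61993 in Mid, with the second High library the highest of its gate. Ttr, a transport protein made by this layer, was 444, 1178 and 408 in High against 155, 167 and 168 in Neg, and its Mid values were 4894, 6199 and 5659. Cubn, an uptake receptor of the same layer, was 236, 881 and 278 in High and 259, 247 and 245 in Neg and was not called, except with array weights (1.17). The uptake receptor Lrp2, also made by neural ectoderm, fell (103 ± 45.4 against 869 ± 124). Of 11 parietal endoderm genes only Plat rose (3 to 6 rose and 0 to 2 fell under equal totals, quantile normalisation, array weights or the compared libraries alone), and their sum was 15754 to 19349 in High, 13074.5 to 14180.4 in Neg and 48141 to 281012 in Mid. The spread used by the main fit includes these Mid libraries, and with the compared libraries alone 6 parietal endoderm genes rose and 2 fell. The part of these markers in the other differences was not tested.

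Epithelial genes rose and mesenchymal genes fell. Of 26 tested genes of junctions and keratins 24 rose and none fell, and of 15 genes of mesenchymal transition 13 fell and 2 rose. Keratin 8 (Krt8) was 24831, 22339 and 29196 in High and 2255, 2732 and 2589 in Neg (3.33, SE 0.12, adjusted p = 5.83e-13). Krt7 was 741 ± 79.9 against 48.9 ± 6.06, and E-cadherin (Cdh1) was 7970, 7720 and 7426 against 2779, 2405 and 2530. The repressors of E-cadherin Snai1 (98.0 ± 21.1 against 714 ± 14.0) and Snai2 (1.60 ± 0.987 against 99.1 ± 59.3) fell, as did the receptor Pdgfra, at 122, 127 and 47.9 against 2478, 2082 and 2344. N-cadherin (Cdh2) was a rise within the second list, from 1156 ± 147 to 1697 ± 311, and was not called without the third High or the second Neg library (0.41 and 0.45).

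Matrix and guidance genes split by member. Of 17 collagens outside type IV 3 rose and 6 fell. Those that rose belong to the cartilage and notochord sheath: Col2a1 was 936, 1255 and 1861 against 221, 224 and 297, and Col11a2 and Col9a3 rose by 3.76 and 1.13 (3.00 for Col11a2 without the first Neg library). Other chains of the same collagen types, Col9a1 (0.05), Col9a2 (-0.57) and Col11a1 (0.39), were called in neither direction. Col1a1, the fibrous collagen of mesenchyme, was 4.80, 5.46 and 8.86 against 223, 461 and 311. Of 19 ephrins and Eph receptors 7 rose and 4 fell, among them the receptor Epha2 (1478 ± 128 against 231 ± 42.1) and the ligand Efna1 (55.3 ± 13.1 against 343 ± 27.2). The apelin receptor Aplnr (8107 ± 2206 against 2482 ± 401) and its early ligand Apela (859 ± 254 against 311 ± 81.4) rose, and the chemokine Cxcl12 fell from 940 ± 51.6 to 59.7 ± 28.1. Unc5c, a netrin receptor and the largest fall picked by size, was 0, 3.64 and 0 in High and 246, 444 and 432 in Neg (-7.76, SE 0.78, adjusted p = 1.61e-07, and -8.50 without the second High library).

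Most tested mesoderm, blood and Hox genes were lower in High. Of 15 nascent and paraxial mesoderm genes 14 fell, of 15 lateral, cardiac and extra-embryonic ones 14, and of 16 blood and endothelial ones 12. Of 39 Hox genes listed, 22 had enough reads to be tested, and 21 of these fell. A gene can reach the read minimum only through the gates where it is high, so the Hox share is a description. With the filter at 50, which selects genes in the same way and so is no check, 9 Hox genes were tested and 9 fell. Msgn1, a factor of presomitic mesoderm, was 39.6, 28.2 and 27.5 against 782, 490 and 588. The endothelial factor Etv2 was 2.40, 6.37 and 8.86 against 275, 368 and 371, and Fli1 had 1 read in High and 510 in Neg. Hbb-bh1, an embryonic globin, also had 1 read in all of High, and in Neg it was 111, 951 and 125, so that the second Neg library held most of it. Gata1, a factor of red cells, was the exception: it was 346, 280 and 230 in High against 50.5, 196 and 37.1 in Neg (1.96, SE 0.47, adjusted p = 0.00226, and 2.67 without the second Neg library), in libraries where the globin Hba-x had no read. Among the Hox genes, Hoxb1 was 115, 128 and 97.5 against 1852, 1224 and 1528, and Hoxb2 was 3.60, 20.0 and 7.09 against 780, 611 and 677.

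Epiblast and ectoderm genes fell in part. Of 12 epiblast genes 8 fell and 3 rose (5 and 3 without the first or the second Neg library). Pou5f1, the pluripotency factor Oct4, was 831, 826 and 739 in High and 2376, 2067 and 2308 in Neg (-1.49, SE 0.11, adjusted p = 1.83e-09). Utf1 was 52.8, 167 and 87.7 against 640, 1322 and 936, and the DNA methyltransferase Dnmt3b was 4270 ± 628 against 15021 ± 1116. Of 13 genes of neural and surface ectoderm 8 fell, among them Sox2 (7.22 ± 4.86 against 94.9 ± 8.73) and Sox3 (2.91 ± 1.46 against 63.3 ± 8.59). The anterior genes Six3, at 300, 177 and 112 against 22.2, 22.3 and 27.2, and Hesx1 (309 ± 42.8 against 115 ± 30.3) rose. Of 7 genes of extra-embryonic ectoderm 5 fell. Elf5, one of the defining factors of that tissue, was 0, 4.55 and 1.77 in High and 41.9, 71.0 and 79.7 in Neg. The embryos lacked the extra-embryonic part used for genotyping, and whether some of this tissue remained was not tested. Of 6 genes of primordial germ cells 1 rose and 2 fell.

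**Figure D4:**
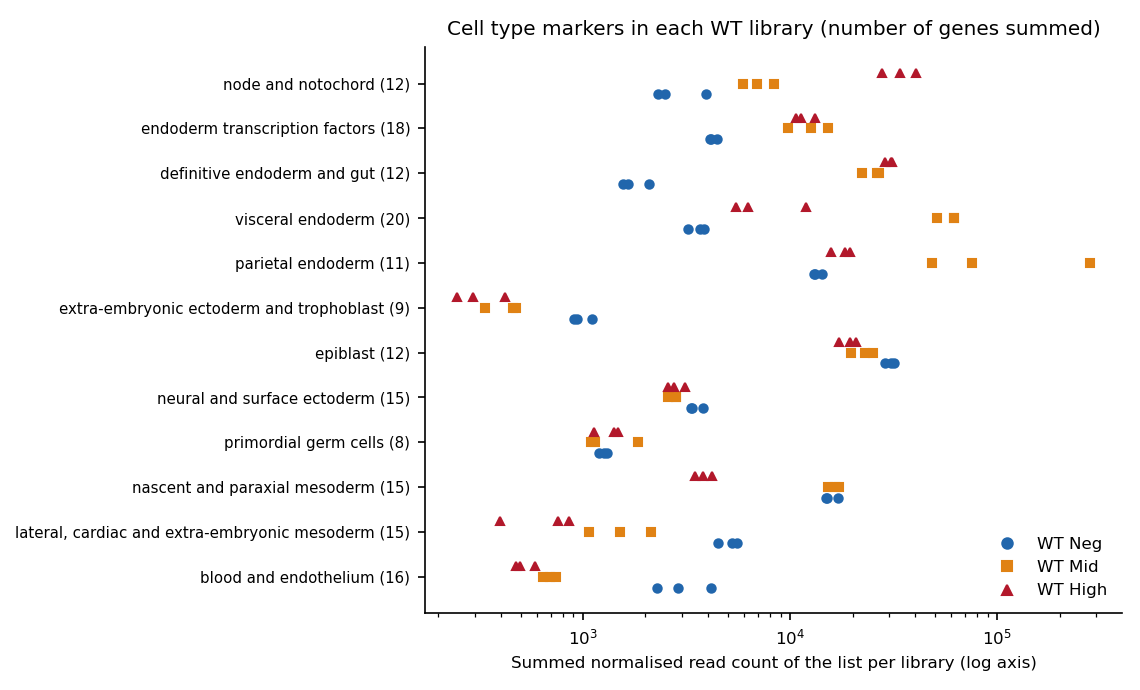
Summed normalised read count of each cell type list in each WT Neg (circles), WT Mid (squares) and WT High (triangles) library, on a log axis, with the number of genes summed in brackets. Node and notochord markers sum to 27706 to 40391 in High and to 2290.5 to 3934 in Neg, while visceral and parietal endoderm markers are highest in Mid.

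Genes of DNA replication were lower by modest amounts. Of 37 tested genes 32 fell and none rose, with a median of -0.67. The sliding clamp Pcna was 2102, 2102 and 2105 in High and 4195, 4155 and 4014 in Neg (-0.97, SE 0.08, adjusted p = 1.06e-08). The ribonucleotide reductase subunit Rrm2 was 2878, 3397 and 3872 against 8623, 8402 and 8509, and the helicase subunit Mcm2 was 3948 ± 689 against 7919 ± 223. Mitotic genes changed less, with 8 falls and 1 rise of 26 (13 and 1 without the third High library, 3 and 3 after quantile normalisation, 15 and 2 with array weights). The main counts are 30.8% lower and 3.8% higher, against 21.8% and 22.6% of all tested genes. Top2a was 7954 ± 578 against 8381 ± 352 and Cdk1 was 3450 ± 516 against 4003 ± 449, neither called, although Cdk1 fell without the third High or the first Neg library (-0.33 and -0.31) and with array weights. Of the G1 regulators, cyclin E1 (Ccne1) was 1220, 1402 and 1282 against 3540, 3630 and 3151, and the inhibitor p27 (Cdkn1b) was 304, 217 and 205 against 81.3, 55.8 and 50.7. Of 18 genes of that group 2 rose and 5 fell (8 with the compared libraries alone). The main counts are 11.1% and 27.8%, against 22.6% and 21.8% of all tested genes.

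Glycolysis genes were lower in High as well, 14 of 20 tested, with a median of -0.59 and 1 rise. The lactate exporter Slc16a3 was 1312, 1649 and 1728 against 3885, 4674 and 5254, while Ldha fell by 0.48 and Gapdh was not called unless the first Neg library was left out (-0.22). The rise was the glucose transporter Slc2a3, at 22251, 34538 and 32745 against 9826, 10882 and 11796. Of 20 respiratory chain genes 10 fell, by 0.26 to 0.65 (3 fell and 2 rose after quantile normalisation). Cholesterol synthesis showed a median of 0.01 with 3 rises of 22, and of 18 genes of the unfolded protein response 4 rose and 2 fell (7 or 8 rose and 0 to 3 fell under equal totals, quantile normalisation, array weights or the compared libraries alone). For the latter list the main counts are 22.2% and 11.1%, against 22.6% and 21.8% of all tested genes. When libraries were scaled to equal totals without Rn45s, the median over all genes moved from 0.02 to 0.13, so shifts of this size depend on the scaling.

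Of 20 tested imprinted genes, expressed from 1 parental copy, 10 fell, 2 rose and 8 were called in neither direction. Phlda2, which restrains growth of the placenta, was 513, 587 and 424 in High and 10468, 8693 and 10422 in Neg (-4.28, SE 0.22, adjusted p = 2.14e-11). Plagl1 was 16.8, 41.0 and 7.09 against 255, 270 and 204, and the growth factor Igf2 was 599, 959 and 464 against 1593, 2185 and 1911. Peg3 and Nnat rose by 0.55 and 0.74.

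Immediate early genes, which respond quickly to signals and to handling of cells, were higher in High: 6 of 12 tested rose and none fell. Fosb was 152, 204 and 138 against 13.6, 31.4 and 22.7, Jun was 2887 ± 691 against 966 ± 154, and the heat shock genes Hspa1a and Hspa1b were not called. Their summed level was 6545 to 9164 in High and 2801 to 4101.5 in Neg, with Mid at 5556 to 8860. Their part in the other differences was not tested. Of the 5 sex-linked genes checked none was called, with a median of -0.07.

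**Figure D5:**
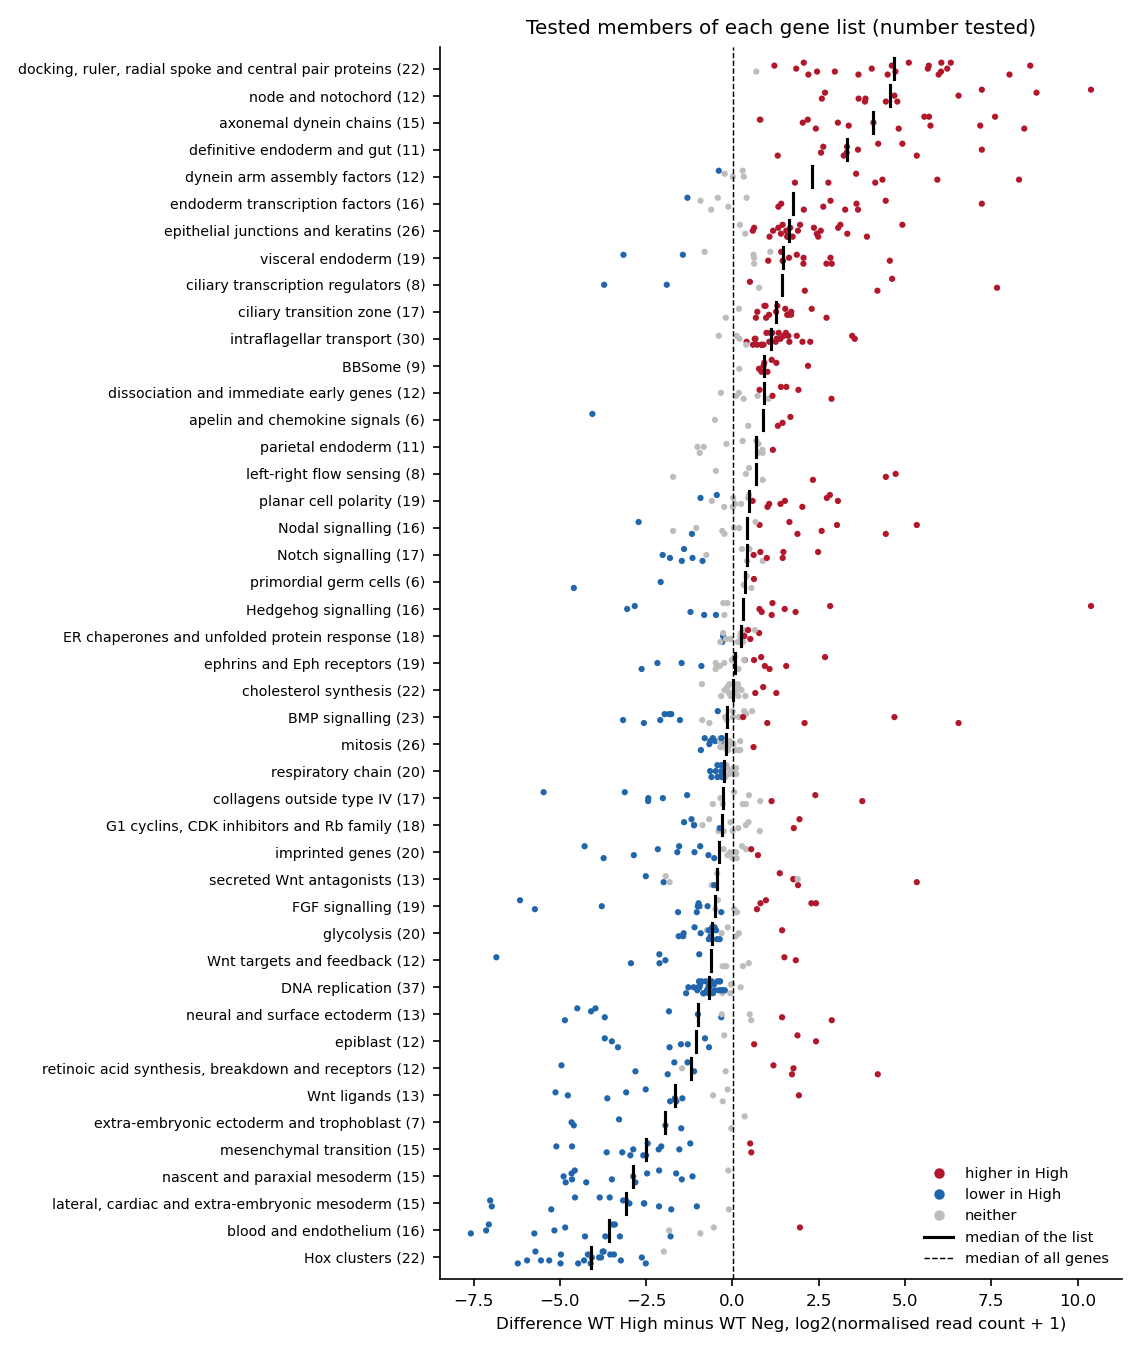
Difference between WT High and WT Neg (log2 scale, x axis) of every tested member of each gene list, with members higher in High in red, lower in blue and neither in grey, the median of each list as a bar and the median of all genes as a dashed line. Axonemal and node lists lie to the right of the line, Hox, blood and mesoderm lists to its left, and metabolic and cell cycle lists close to it.

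In 31 genes all 3 Neg libraries had no read while the High mean was at least 20, and for 7 genes it was the reverse. Ak7, the axonemal kinase with a forkhead match above, was 344, 316 and 360 in High, at least 108-fold higher when each Neg library is set to 3 reads. Spag6l, a central pair protein with a near-identical copy, was 247, 198 and 322, at least 81.1-fold higher, and Meig1, needed for the sperm tail, was 120, 91.0 and 152, at least 38.4-fold higher. Outside cilia, the epithelial factor Ehf was 37.2, 83.7 and 66.5, the gut receptor Gucy2c 67.1, 58.3 and 43.4 and the neuropeptide gene Npy 26.4, 30.9 and 12.4. In the other direction, the neural Hes3 had no read in High and was 86.2, 80.1 and 119 in Neg, at least 31.7-fold lower in High, and Hoxd3 and Hoxb7 were among the 7. These bounds cover counting error only, and Spag6l, Meig1, Ehf, Gucy2c, Npy and Hes3 were named after their values were seen.

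The Mid gate lay between High and Neg for most genes that differed at least 4-fold between these gates. The genes were picked by that gap, and the share over all tested genes was not computed, so the counts are a description. Of the 1105 genes at least 4-fold higher in High, the Mid mean was between the others in 886 (80.2%), beyond High in 157 and below Neg in 62, with a median place 49.1% of the way from Neg to High on the log2 scale. Of the 492 genes at least 4-fold lower, 390 were between (79.3%), with a median of 53.2%. Fgf15, for example, was 348, 338 and 327 in Mid, and Noto was 119, 169 and 266. The first Mid library stood apart in parietal endoderm markers, which summed to 281012 there.

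The same difference between gates was computed in ΔHx, and its difference from WT was tested gene by gene. No gene passed in limma (0 of 14711, with 463 at an unadjusted p under 0.05 and a lowest adjusted p of 0.488), and none in edgeR. DESeq2 on the recovered reads called 6, with the change from Neg to High higher in ΔHx for 2 and lower for 4. The Notch ligand Dll1 was among them: its change from Neg to High was -1.47 in WT and -0.43 in ΔHx, with an adjusted p of 0.0306 in DESeq2 and 0.488 in limma. Zmynd10, named above among the largest rises in WT, was also called by DESeq2 (adjusted p = 0.0404) and not by limma or edgeR. For Shh the changes were 10.39 and 6.31, and for Noto 8.81 and 6.66, neither called different. A p above the threshold does not show that the genotypes were alike.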

How the data were processed

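Each library was made with SMART-Seq2 from the RNA of 1000 sorted cells, out of 2500 to 5000 collected, and read as 75-base single ends. Per the submitters' processing notes, STAR 2.5.2a, HTSeq 0.6.1, DESeq and DESeq2 were used with mm10. Details of the gene annotation were not given in the sources used here. Deposited was a table with a normalised signal, gene read counts that the authors divided by 1 factor per library. All 440964 values were whole multiples of 1 read (within 1e-06 reads, 1 read being worth 0.825 to 1.37), so the reads were recovered. The 5 HTSeq counter lines stayed out.

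The 14711 genes that reached 10 in 3 or more of the 18 libraries were tested with limma 3.58.1 in R 4.3.3 (trend, log2(value + 1), 6 group means, two-sided, Benjamini-Hochberg, adjusted p under 0.05). edgeR 4.0.16 and DESeq2 1.42.0 were run on the recovered reads, and the closing section gives the other alternatives. Scripts were tested on simulated data. No replicate pair was a copy: their counts differed by more than sampling noise. Bounds set a library without reads to 3 reads, and intervals cover counting error only.

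Gene positions are from GENCODE M21 on GRCm38 (mm10), for the 14271 tested genes with 1 position. The members, the 46 gene lists and the tests were chosen with earlier results of these data known. Genes were named by rule (the 12 largest rises and falls with libraries that did not overlap and whose mean reached 100 in the higher gate, leaving out predicted and clone-named genes, and up to 3 members a list and direction whose mean reached 20); other list members were named for their role after their values were seen. The values of 2 list members are not reported here.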

Additional observations from a re-analysis of the deposited data

How the results depend on the processing

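The counts of 3331 higher and 3201 lower genes stayed within 1.5 times under every alternative but one: against a 2-fold limit 939 were higher and 330 lower. No called gene was called in the opposite direction under any alternative. edgeR gave 3293 and 3175, DESeq2 3519 and 3263, array weights 4000 and 3830, and leaving out each library in turn 2871 to 3169 higher and 2686 to 3100 lower. Scaling changed the balance: 51.0% of calls were higher as deposited, 60.7% with equal totals without Rn45s (3931 and 2547) and 44.2% after quantile normalisation (2810 and 3550), where the median over all genes was -0.09 in place of 0.02. With a replicate block the counts were 3635 and 3463. High and Neg libraries with the same number correlated, in their deviations from the gate mean, at 0.09, 0.07 and 0.12. All other combinations were negative, from -0.085 to -0.011. Deviations from a gate mean sum to 0 over its libraries, so these signs are partly set by the calculation. The main fit did not treat libraries with the same number as pairs, because not all of their correlations were above 0.1. That limit does not show that they are unpaired, and the sample titles give only a replicate number. With the block, 8 BMP genes rose and 8 fell, 7 genes of the unfolded protein response rose, Jag1 was called higher, and Smo, Cdk1 and Ruvbl1 were called lower. The alternative of the compared libraries alone with a replicate block (3766 and 3587) was chosen after seeing the data. For the difference between genotypes DESeq2, run with all libraries only, called 6 genes. The main limma fit called 0, and limma with each library left out in turn called 0 to 2. The size of differences against a gate with few reads depends on the pseudocount: that of Shh was 11.09 with 0.5 and 8.63 with 5 in place of 10.39, and that of Ak7 was 9.41 and 6.11 in place of 8.41. The interval given for Rsph4a, another gene with few Neg reads, was wide. No interval was computed for Shh and Ak7.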
